A study of Arabidopsis thaliana with 18 samples.

Results

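Phosphatidylcholine (PC) is the main phospholipid of plant membranes outside the plastid, and its head group, phosphocholine, reaches it by a short chain of enzymes. Phosphoethanolamine *N*-methyltransferases (NMT) add methyl groups to phosphoethanolamine until phosphocholine results, and choline kinases (CEK) make phosphocholine from free choline. CCT enzymes then form CDP-choline from phosphocholine and CTP, and aminoalcoholphosphotransferases (AAPT) join its head group to diacylglycerol. Genes of these 4 steps were followed here: NMT1 to NMT3, CEK1 to CEK3, CCT1 and CCT2, and AAPT1 and AAPT2. They were chosen by Arabidopsis gene identifier, not by a rule on their values, but with earlier results of these data known. Of the 10 genes, 8 had a row under their own identifier among the 35197 rows of the table. The other 2 were read from a row that carries the identifier of a small gene within the same locus, and are kept apart in every count. NMT2 (AT1G48600) was read from the row of AT1G48598, an upstream reading frame in its mRNA. CEK1 (AT1G71697) was read from the row of AT1G71700, a tRNA gene inside CEK1. All 10 rows passed the filter on low values.

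RNA from roots of *Arabidopsis thaliana* seedlings aged 5 days was sequenced in 18 libraries, 3 for each of 6 groups. The groups were *lpcat*, disrupted in both lysophosphatidylcholine acyltransferase genes LPCAT1 and LPCAT2, and wild type (WT, Col-0), each on control medium, on 20 µg/mL lysoPAF, and on 20 µg/mL lysoPAF with ONO. LysoPAF is an ether analog of lysophosphatidylcholine (LPC), the lipid that LPCAT turns back into PC. ONO (ONO-RS-082) inhibits phospholipase A2, which makes LPC from PC. Its dose is 50 µM in the sample labels, whereas the study's text gives the same figure in µg/mL. No library had ONO without lysoPAF. The labels do not say whether the 3 libraries of a group came from separate cultures, so p-values measure the spread between libraries, which may be technical.

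Libraries held 8681898 to 16767002 reads in genes. The unit throughout is the normalized count, a read count divided by the size factor of its library. LPCAT1 lay between 47.3 and 72.1 normalized counts in the 9 lpcat libraries and between 247 and 342 in the 9 WT libraries. LPCAT2 was higher in lpcat, between 435 and 774 against 186 and 234 in WT (log2 fold change 1.16, 1.54 and 1.86 by medium, called in each). The counts do not separate intact from disrupted transcripts. Replicate 2 of lpcat on control medium lay far from its group-mates. On the first principal component it lay at 32.5, against -31.2 and -34.4 for the other lpcat control libraries and 30.9 to 37.6 for lpcat libraries on lysoPAF. Its LPCAT1 count lay in the lpcat range, but no value here checks its medium, so its label as a control medium library is in doubt. Its share of mitochondrial reads was 0.174%, against 0.0270% in both group-mates. On lysoPAF this share was 0.0890% to 0.129% in lpcat, against 0.0391% to 0.0807% in WT, and on lysoPAF+ONO 0.0457% to 0.0523% in lpcat, against 0.0220% to 0.0267% in WT, with no overlap between the genotypes on either medium. All 11 root markers had counts in every library. Their sum ran from 5296 to 5694 in lpcat control and 4559 to 5021 in WT control, 5629 to 5689 in lpcat lysoPAF and 5194 to 5369 in WT lysoPAF, and 5349 to 5995 in lpcat lysoPAF+ONO and 5498 to 5684 in WT lysoPAF+ONO. Some root markers were called between the genotypes: COBL9, EXPA7 and CASP1 were higher in lpcat on control medium, COBL9 and IRX3 higher and PLT1 lower on lysoPAF, and IRX3 higher on lysoPAF+ONO. All 6 markers of green shoot tissue also had counts in every library, and their summed level ran from 787 to 4865 in lpcat control, 1918 to 4935 in WT control, 927 to 2672 in lpcat lysoPAF, 1707 to 1897 in WT lysoPAF, 1152 to 3001 in lpcat lysoPAF+ONO and 1361 to 1920 in WT lysoPAF+ONO. The part of cell type makeup and of the mitochondrial share in the results below was not tested.

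NMT1 (AT3G18000, TAIR10.1 chromosome 3, 6154363 to 6157552, plus strand, 12 exons) was the only member called between genotypes in the fits of all libraries. Between media it was called in WT only. NMT2, NMT3 and the CEK1 locus were also called between media, in WT on lysoPAF+ONO against control medium. NMT1 was higher in lpcat than in WT on every medium, by 1.36 times on control medium, 2.39 times on lysoPAF and 1.59 times on lysoPAF+ONO. In WT it fell on lysoPAF to 0.517 times its level on control medium and was 1.58 times higher on lysoPAF+ONO than on lysoPAF. In lpcat neither step passed the test. NMT1, also known as XIPOTL1, carries out all methylation steps and is known for its role in root growth. Its mRNA also holds an upstream reading frame that is known to repress translation when phosphocholine is high, a layer that counts of mRNA do not show.

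On control medium NMT1 had 4132, 3911 and 4641 normalized counts in lpcat, against 3171, 2954 and 3196 in WT. On lysoPAF it had 3892, 3654 and 4002 in lpcat, against 1420, 1726 and 1678 in WT. With ONO added to lysoPAF it had 4021, 3918 and 4237 in lpcat, against 2449, 2452 and 2734 in WT. The 9 lpcat libraries all lay above the 9 WT libraries, whatever the medium. The lpcat groups overlapped each other, while the WT groups stood apart, with lysoPAF lowest and control medium highest.

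**Figure D1:**
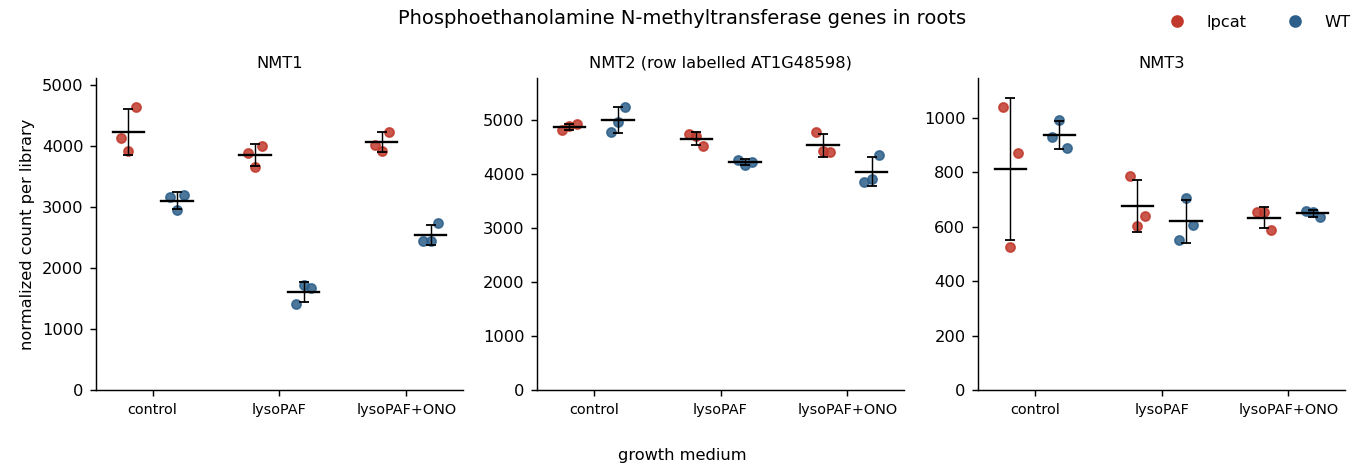
Normalized count per library of NMT1, NMT2 and NMT3 in lpcat (red) and WT (blue) roots on 3 media; points are libraries, horizontal bars group means and error bars SD (n = 3). NMT1 ranged from 3654 to 4641 in lpcat and fell to 1420 to 1726 in WT on lysoPAF, and NMT3 in lpcat control replicate 2 was at 526.

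The difference between genotypes was tested with limma on log2(normalized count + 1) over all libraries, with p adjusted over 23760 genes. On control medium the log2 fold change of NMT1 in lpcat against WT was 0.44 (standard error 0.09, adjusted p = 0.00694). This call was lost without WT control replicate 2 (0.41, adjusted p = 0.0502) and in a fit of these 6 libraries alone (adjusted p = 0.209). Without lpcat control replicate 2 it was 0.50 (adjusted p = 0.00107). On lysoPAF the log2 fold change was 1.26 (standard error 0.09, adjusted p = 2.3e-08), the 5th smallest p of all genes tested. On lysoPAF+ONO it was 0.67 (adjusted p = 0.000142). Both of these calls remained with each library left out in turn. COBL9, a root hair marker, was also higher in lpcat than in WT by 0.67 on control medium and 0.39 on lysoPAF, CASP1, an endodermis marker, by 0.57 on control medium, and IRX3, a xylem marker, by 0.51 on lysoPAF and 0.38 on lysoPAF+ONO. NMT1 was the 1 gene called of the 8 in each medium, where 2.77% of all genes were called on control medium, 11.2% on lysoPAF and 3.27% on lysoPAF+ONO. With 1 library left out these shares ran from 1.17% to 7.06%, 5.90% to 17.0% and 0.867% to 8.69%. The median log2 fold change of the 8 genes on lysoPAF was -0.00, against 0.00 over all genes, and the median of their absolute values was 0.15, against 0.21.

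Between media, NMT1 in WT fell by 0.95 on the log2 scale on lysoPAF against control medium (standard error 0.09, adjusted p = 1.58e-05). This was the smallest p among the 23760 genes of that comparison, in which 2.48% of genes were called. Of the 11 root markers 1 was called higher there and 0 lower, and its part in the NMT1 value was not tested. In lpcat the same step gave -0.13 (95% confidence interval -0.31 to 0.05, adjusted p = 0.443). No member was called there, where 3.51% of all genes were, and the count for the 8 genes was also 0 at an unadjusted p under 0.05 in limma and 0 with edgeR and with DESeq2. These fits kept lpcat control replicate 2. Without it NMT1 gave -0.19 (adjusted p = 0.152). NMT3, CCT2 and the CEK1 locus were then called (adjusted p = 0.00173, 0.0484 and 0.000192), where 18.7% of all genes were. The difference between the NMT1 responses of lpcat and WT was 0.82 on the log2 scale (95% confidence interval 0.57 to 1.08, adjusted p = 0.0255). With all libraries this was again the smallest p of all genes, in a comparison where 0.0547% of genes were called. Without lpcat control replicate 2 the difference for NMT1 was 0.77 (adjusted p = 0.000106), and 9.49% of all genes were called. In that fit PS2 and GDPD1, genes described below, had smaller adjusted p (5.24e-10 and 2.13e-05) than NMT1. With that library kept, the NMT1 call ended with any 1 of 8 of the 12 compared libraries left out (all 3 of WT control, lpcat control replicate 1, WT lysoPAF replicates 1 and 3, lpcat lysoPAF replicates 2 and 3), with adjusted p of up to 0.104. It also ended in a fit of the 12 libraries compared (adjusted p = 0.142).

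Adding ONO to lysoPAF raised NMT1 in WT by 0.67 on the log2 scale (standard error 0.09, adjusted p = 5.71e-05), and 5.49% of all genes were called in that comparison. Of the 11 root markers 2 were called higher with ONO in WT and 0 lower, and in lpcat 1 was higher and 1 lower. Their part in the NMT1 values was not tested. In lpcat the change of NMT1 was 0.08 (95% confidence interval -0.10 to 0.26, adjusted p = 0.689). There the count of members called was 0 with limma, edgeR and DESeq2, with 1 of 8 at an unadjusted p under 0.05 in limma, where 6.06% of all genes were called. The responses of NMT1 to ONO differed by -0.59 (95% confidence interval -0.84 to -0.34, adjusted p = 0.0217), where 1.26% of all genes were called and 1 of the 11 root markers, with a negative difference. This call was lost without WT lysoPAF replicate 1, lpcat lysoPAF replicate 2 or 3, WT lysoPAF+ONO replicate 1 or 2, or lpcat lysoPAF+ONO replicate 2, with adjusted p of up to 0.0757. Against control medium, WT roots on lysoPAF+ONO still had less NMT1, by -0.29 (adjusted p = 0.0377). That call was lost without WT control replicate 1, 2 or 3 (adjusted p = 0.108, 0.0574 and 0.120) and without WT lysoPAF+ONO replicate 1 or 2 (adjusted p = 0.130 each). In lpcat this difference was -0.06 (95% confidence interval -0.24 to 0.12, adjusted p = 0.782). The 2 ONO comparisons of a genotype share the libraries on lysoPAF+ONO. The fall of NMT1 in WT on lysoPAF, its rise with ONO and the genotype difference on lysoPAF share the WT libraries on lysoPAF. Both differences in response use these libraries too, so these results are not independent of each other. By group mean, the lowest levels were those of WT, at 1608 on lysoPAF, 2545 on lysoPAF+ONO and 3107 on control medium. Those of lpcat were 3849 on lysoPAF, 4058 on lysoPAF+ONO and 4228 on control medium, and no pair of these 3 was called.

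**Figure D2:**
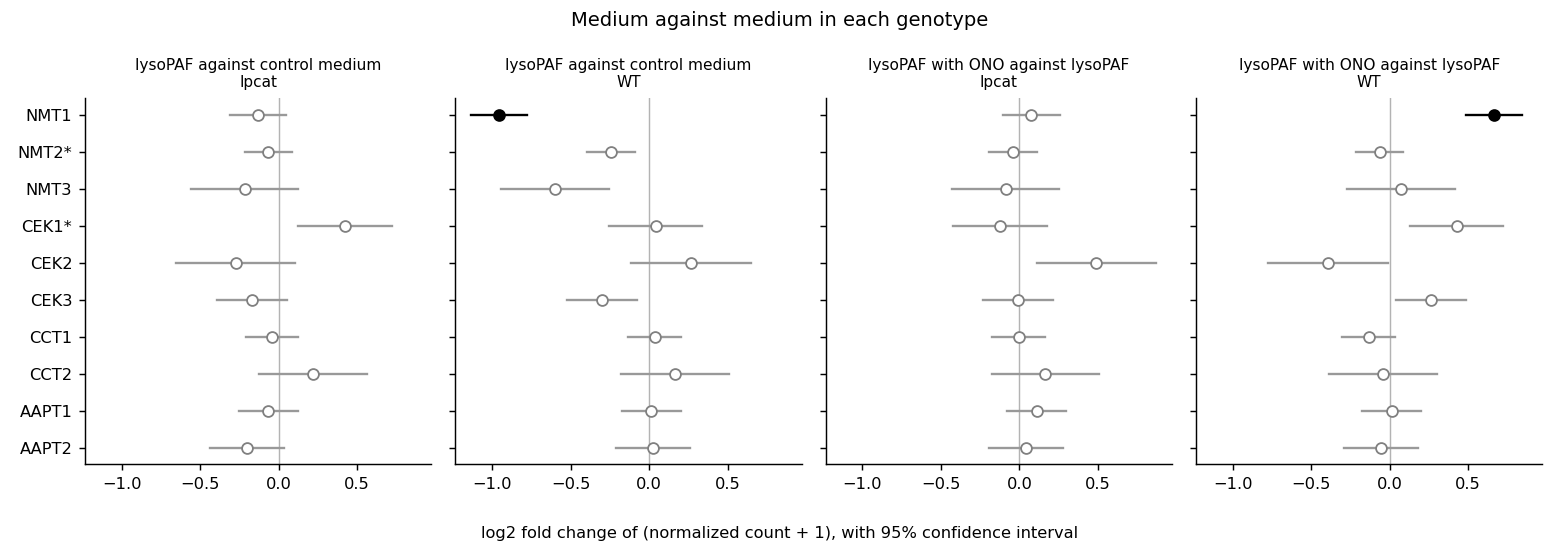
Log2 fold change of (normalized count + 1) with its 95% confidence interval for the 10 genes (asterisk: read from a row labelled with another identifier) when lysoPAF is set against control medium and lysoPAF+ONO against lysoPAF, in lpcat and in WT. Filled black points passed an adjusted p of 0.05, which in these 4 comparisons was NMT1 in WT only, at -0.95 and 0.67.

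NMT2 and NMT3 encode close relatives of NMT1. NMT2 is known to prefer the later methylation steps, and NMT3 acts on phosphoethanolamine as NMT1 does. NMT2 lies on chromosome 1 (17965871 to 17969354, plus strand, 12 exons), as does NMT3 (27669152 to 27673572, plus strand, 11 exons). The locus of NMT2 had the highest level of the 10 genes per length, at a mean of 2287 normalized counts per kb of exon, against 1691 for NMT1 and 366 for NMT3. On control medium the NMT2 locus had 4801, 4879 and 4919 normalized counts in lpcat, against 4765, 4965 and 5237 in WT. On lysoPAF it had 4740, 4693 and 4515 in lpcat, against 4260, 4167 and 4226 in WT. On lysoPAF+ONO it had 4772, 4413 and 4393 in lpcat, against 3857, 3909 and 4351 in WT. With lysoPAF or lysoPAF+ONO the lpcat libraries lay above those of WT without overlap, by 0.14 and 0.17 on the log2 scale, but neither passed the test (adjusted p = 0.242 and 0.239). How many of all genes had groups without overlap was not counted. Here and below, a lack of overlap without a call therefore describes the values only. The highest group mean of the NMT2 locus was 1.24 times its lowest, against 2.63 times for NMT1. It fell in WT on lysoPAF+ONO against control medium, by -0.31 on the log2 scale (adjusted p = 0.00985), although not without WT control replicate 3 or WT lysoPAF+ONO replicate 1 or 2 (adjusted p = 0.0519, 0.0578 and 0.0527). On lysoPAF against control medium in WT the value was -0.24 (adjusted p = 0.0819; 0.0364 without lpcat control replicate 2 and 0.00796 with DESeq2).

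NMT3 (AT1G73600) had 1039, 526 and 870 normalized counts in lpcat on control medium, against 929, 992 and 888 in WT. The lowest of these values was that of lpcat control replicate 2. On lysoPAF it had 786, 604 and 637 in lpcat, against 550, 705 and 606 in WT, and on lysoPAF+ONO 656, 655 and 588 in lpcat, against 659, 652 and 635 in WT. In WT, both media with lysoPAF thus lay below control medium with no overlap. For lysoPAF against control medium in WT the log2 fold change was -0.60 (standard error 0.16, adjusted p = 0.0567; 0.0180 with DESeq2 and 0.000468 without lpcat control replicate 2). For lysoPAF+ONO against control medium in WT it was -0.53 (adjusted p = 0.0462), a call that was lost with any of the 6 compared libraries left out (adjusted p 0.0859 to 0.143). Together with NMT1 this made 2 of 8 genes called in that comparison, where 9.75% of all genes were. In the same comparison 4 of the 11 root markers were higher, PLT1 by 0.36, COBL9 by 0.66, EXPA7 by 0.57 and CASP1 by 0.34, and 1 of the 6 green tissue markers was lower, LHCB2.1, with a log2 fold change of -2.09 (adjusted p = 0.0318). Their part in the values of NMT1, NMT2, NMT3 and CEK1 was not tested. In lpcat, NMT3 on lysoPAF against control medium gave -0.22 (adjusted p = 0.522), and -0.50 (adjusted p = 0.00173) without lpcat control replicate 2. For lysoPAF+ONO against control medium in lpcat the values were -0.30 (adjusted p = 0.307) and, without that library, -0.59 (adjusted p = 0.000404). NMT3 in lpcat was thus lower in all of these fits, but was called only in those that left this library out. With it, 0 of 8 genes were called in lysoPAF+ONO against control medium in lpcat by limma, edgeR and DESeq2, with 1 at an unadjusted p under 0.05, where 7.06% of all genes were called.

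As shares of the summed NMT counts, which give no test, NMT1 took 42.6% ± 1.64 in lpcat control and 34.4% ± 1.31 in WT control (SD, n = 3 each). On lysoPAF it took 41.95% ± 1.54 in lpcat and 24.9% ± 1.84 in WT. On lysoPAF+ONO it took 44.0% ± 1.75 in lpcat and 35.2% ± 0.223 in WT. The NMT2 locus held most of the rest, up to 65.5% ± 2.66 in WT on lysoPAF. The 3 genes summed to 9175 ± 234 normalized counts in lpcat on lysoPAF and 6446 ± 192 in WT on lysoPAF, so that most of the difference in the sum lay in NMT1.

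**Figure D3:**
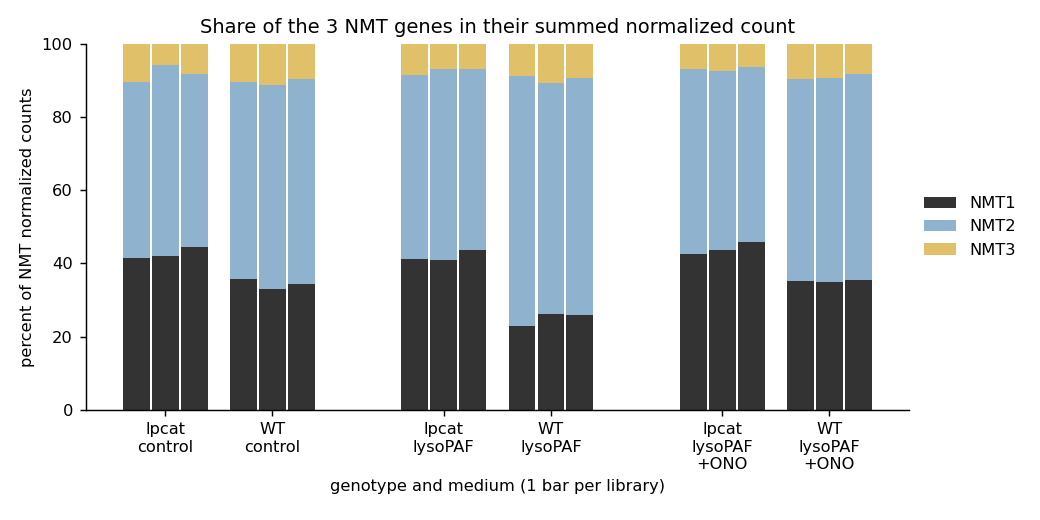
Percent of the summed normalized counts of NMT1, NMT2 and NMT3 that each gene took, with 1 bar per library and the groups in lpcat and WT pairs by medium. The share of NMT1 was 24.9% on average in WT on lysoPAF, while every other group averaged 34.4% or more.

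The stretches of 250 bases before the annotated starts of the 3 NMT genes are shown because NMT1 was called in several comparisons in which the other NMT genes were not. The sequences come from TAIR10.1 (RefSeq) and run 5′ to 3′ on the gene's strand, with TATAAA, the letters of a TATA box, in capitals where it was found on either strand. The windows are chr3:6154113-6154362 for NMT1, chr1:17965621-17965870 for NMT2 and chr1:27668902-27669151 for NMT3, all on the plus strand.
NMT1: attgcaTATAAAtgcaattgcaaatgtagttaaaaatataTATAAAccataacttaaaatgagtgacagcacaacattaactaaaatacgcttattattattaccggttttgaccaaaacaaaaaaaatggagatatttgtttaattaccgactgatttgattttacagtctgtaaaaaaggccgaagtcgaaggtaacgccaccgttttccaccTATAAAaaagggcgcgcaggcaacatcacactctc
NMT2: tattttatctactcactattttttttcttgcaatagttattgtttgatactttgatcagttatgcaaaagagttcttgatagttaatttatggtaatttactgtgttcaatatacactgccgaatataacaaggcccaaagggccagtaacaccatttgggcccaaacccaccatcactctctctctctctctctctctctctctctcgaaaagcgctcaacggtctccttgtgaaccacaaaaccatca
NMT3: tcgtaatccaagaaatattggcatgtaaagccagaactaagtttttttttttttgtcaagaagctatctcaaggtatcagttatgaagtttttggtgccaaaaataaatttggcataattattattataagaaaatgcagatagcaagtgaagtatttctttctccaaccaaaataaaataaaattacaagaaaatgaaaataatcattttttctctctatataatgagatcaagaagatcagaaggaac

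In these windows TATAAA occurred 3 times before NMT1, at -244, -210 and -35 from the start, and not before NMT2 or NMT3. Of the windows of 250 bases before 27443 protein-coding genes, 47.3% held it. The other motifs, also searched on both strands, had no match before any of the 10 genes. They were the phosphate response element P1BS (GNATATNC, in 5.46% of all windows), the abscisic acid response element ABRE (ACGTGNC, 8.57%), the heat shock element core (GAANNTTC, 9.55%) and the ER stress element ERSE (0.689%). A match describes letters only, and its absence says no more than that these letters are not in this window.

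The NMT genes are alike in coding sequence, which bears on how reads were assigned. NMT1 and NMT2 were identical at 85.3% of aligned coding bases, and NMT1 and NMT3 at 75.1%. The longest stretch shared without a difference was 47 bases for NMT1 and NMT2, shorter than a read. A window of read length around that stretch, coding bases 1018 to 1118 of NMT1, is shown because it holds that stretch. Capitals mark bases that differ from NMT1.
NMT1: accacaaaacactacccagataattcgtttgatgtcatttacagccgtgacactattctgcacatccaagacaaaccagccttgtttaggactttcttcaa
NMT2: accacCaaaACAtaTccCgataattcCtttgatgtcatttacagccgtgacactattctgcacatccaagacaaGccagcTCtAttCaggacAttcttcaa
NMT3: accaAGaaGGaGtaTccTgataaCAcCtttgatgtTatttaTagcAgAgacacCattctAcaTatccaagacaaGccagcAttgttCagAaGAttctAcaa

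In this window NMT2 differed from NMT1 at 13 bases and NMT3 at 24. No read-long run of coding bases of any of the 10 genes occurred in another gene of its step. The 2 AAPT genes were the next most alike, at 83.5% identity and a longest shared stretch of 36 bases.

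The remaining members, by contrast, showed no call that held under every alternative. The kinases act on free choline. CEK2 (AT1G74320; chromosome 1, 27940594 to 27943204, 8 exons) had 84.4, 73.5 and 68 normalized counts in lpcat on lysoPAF, against 94.1, 130.5 and 109.3 in WT. The groups did not overlap, and the log2 fold change was -0.55 (standard error 0.18, adjusted p = 0.0571; 0.0468 with edgeR, 0.0493 with DESeq2 and 0.0216 without lpcat control replicate 2). On lysoPAF+ONO it had 121.1, 116.9 and 83.5 in lpcat, against 85.3, 75.8 and 90.5 in WT, which overlapped (0.34, adjusted p = 0.366). The responses of CEK2 to ONO differed between the genotypes by 0.89 on the log2 scale (adjusted p = 0.0993; 0.0475 with DESeq2 and 0.0266 without lpcat control replicate 2). CEK2 had the lowest level of the 10 genes per length, 56.3 normalized counts per kb of exon, and its SD averaged 15.3% of the mean within groups.

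The locus of CEK1 (chromosome 1, 26970968 to 26973464, 7 exons) had 188.6, 311.4 and 205.3 normalized counts in lpcat on control medium, where replicate 2 was the highest, against 215.3, 215.8 and 256.4 in WT. On lysoPAF it had 268.1, 328.2 and 330.6 in lpcat, against 251.2, 226.9 and 228.2 in WT. On lysoPAF+ONO it had 271.5, 297.5 and 278.1 in lpcat, against 347.7, 308.6 and 294.4 in WT. On lysoPAF lpcat lay above WT without overlap (0.39, adjusted p = 0.0884; 0.00905 without lpcat control replicate 2). In WT it rose on lysoPAF+ONO against control medium by 0.47 on the log2 scale (adjusted p = 0.0420), a call lost with any of 5 of the 6 compared libraries left out (adjusted p of up to 0.158) with scaling by nuclear genes (adjusted p = 0.0955) and with no filter (adjusted p = 0.0522). In WT, lysoPAF+ONO against lysoPAF gave 0.43 (adjusted p = 0.0894; 0.0474 with only the groups compared and 0.00719 without lpcat control replicate 2). In lpcat on lysoPAF against control medium the value was 0.42 (adjusted p = 0.103), and 0.64 (adjusted p = 0.000192) without lpcat control replicate 2. Its responses to lysoPAF differed between the genotypes by 0.38 with that library (adjusted p = 0.486) and 0.60 without it (adjusted p = 0.0120). Its responses to ONO differed by -0.55 (adjusted p = 0.200; 0.0318 with only the groups compared and 0.0252 without that library). On lysoPAF+ONO against control medium in lpcat the value was 0.30 (adjusted p = 0.239), and 0.52 without that library (adjusted p = 0.00212).

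CEK3 (AT4G09760; chromosome 4, 6148758 to 6151399, 7 exons) lay between 160.1 and 200.3 normalized counts in lpcat libraries and between 137.7 and 206.2 in WT libraries. Its values in WT on lysoPAF were 179.0, 158.8 and 137.7, all below the 186.8, 200.4 and 195.6 on control medium (-0.30, adjusted p = 0.146). In lpcat, lysoPAF and lysoPAF+ONO also lay below control medium without overlap, at -0.17 (adjusted p = 0.424) and -0.18 (adjusted p = 0.360). CEK3 has an antisense neighbour, AT4G09750, and without the strand setting of the counting its reads cannot be told from those of that gene.

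The CCT enzymes are held to set the pace of the CDP-choline route. CCT1 (AT2G32260; chromosome 2, 13697457 to 13700648, 8 exons) was the steadiest gene, with group means from 666 in WT on lysoPAF+ONO to 731 in WT on lysoPAF, so that the highest was 1.097 times the lowest. On lysoPAF the log2 fold change of CCT1 in lpcat against WT was -0.05 (95% confidence interval -0.22 to 0.11). CCT2 (AT4G15130; chromosome 4, 8637666 to 8639581, 8 exons) had 101.6, 150.0 and 92.1 normalized counts in lpcat on control medium, again highest in replicate 2, against 126.6, 106.4 and 106.8 in WT. In lpcat on lysoPAF+ONO it had 127.8, 151.6 and 162.2. The log2 fold change of lysoPAF+ONO against control medium in lpcat was 0.38 (adjusted p = 0.185), and 0.59 (adjusted p = 0.00751) without lpcat control replicate 2. Without that library, lysoPAF against control medium in lpcat gave 0.43 (adjusted p = 0.0484), against 0.22 (adjusted p = 0.517) with it. CCT2 overlaps AT4G15140 on the other strand. Of the summed CCT counts, CCT1 took 82.7% to 86.5% as a group mean.

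The aminoalcoholphosphotransferases make the last step and accept both CDP-choline and CDP-ethanolamine. AAPT1 (AT1G13560; chromosome 1, 4638468 to 4642190, 19 exons) had 674.2, 630.3 and 671.5 normalized counts in lpcat on lysoPAF, against 709.2, 761.2 and 808.5 in WT. These groups did not overlap, but the log2 fold change of -0.20 (95% confidence interval -0.39 to -0.02) had an adjusted p of 0.162. AAPT2 (AT3G25585; chromosome 3, 9295175 to 9298746, 17 exons) had 645.2, 534.7 and 610.1 in lpcat on lysoPAF, against 637.8, 670.4 and 717.1 in WT (-0.18, adjusted p = 0.350). Neither AAPT gene, nor CCT1 or CEK3, was called in any of the 11 comparisons. Part of AAPT1 overlaps AT1G13570 on the same strand, so its count is uncertain. Each AAPT gene took about equal parts of their sum, with 50.2% to 54.1% for AAPT1 as a group mean.

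**Figure D4:**
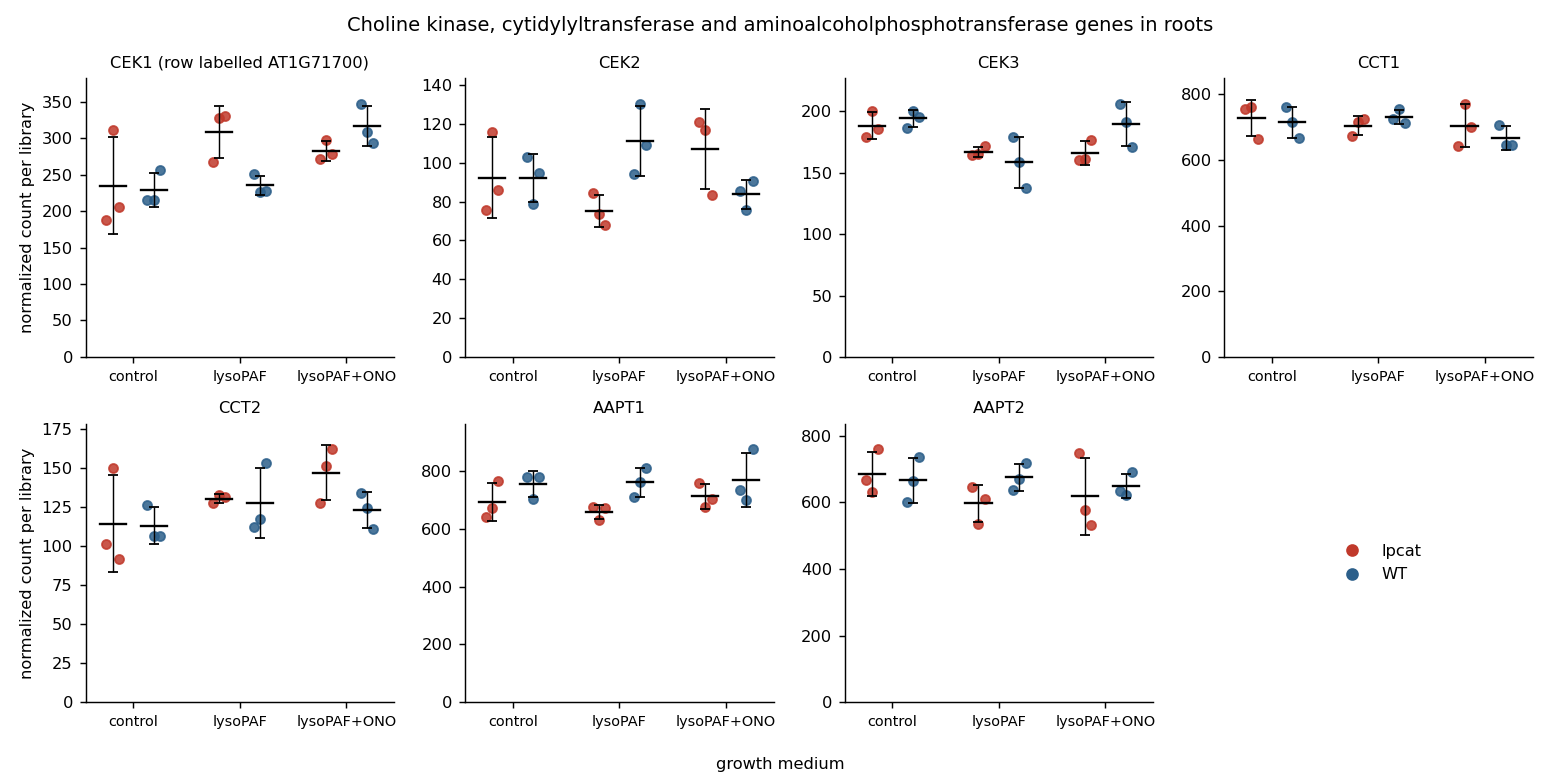
Normalized count per library of the 3 CEK, 2 CCT and 2 AAPT genes in lpcat (red) and WT (blue) roots on 3 media; points are libraries, horizontal bars group means and error bars SD (n = 3). CEK2 on lysoPAF lay at 68 to 84.4 in lpcat and 94.1 to 130.5 in WT, and the CEK1 locus in lpcat control replicate 2 lay at 311.4.

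**Figure D5:**
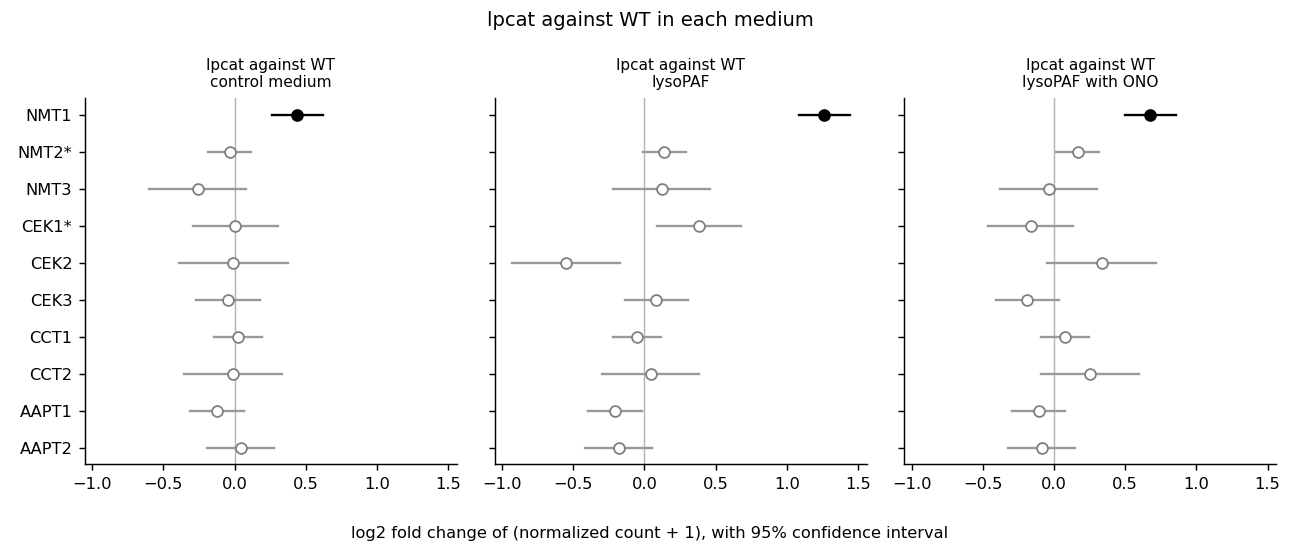
Log2 fold change of (normalized count + 1) with its 95% confidence interval for lpcat against WT in each medium, for the 10 genes (asterisk: read from a row labelled with another identifier). Only NMT1, drawn as filled points at 0.44, 1.26 and 0.67, passed an adjusted p of 0.05.

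Genes around these steps were counted by list. Among 12 tested genes that release or break down phosphocholine or turn over glycerophosphocholine, 6 were higher and 0 lower in lpcat than in WT on lysoPAF. There 6.56% of all genes were higher and 4.63% lower. Their median log2 fold change was 0.81, against 0.00 over all genes. PECP1, a phosphatase of phosphocholine and phosphoethanolamine, had 57.1, 53.4 and 30.2 normalized counts in lpcat, against 0.840, 0 and 3.15 in WT (4.55, adjusted p = 4.75e-05). Its relative PS2 had 773.5, 856.9 and 919.9 in lpcat, against 136, 151 and 175 in WT (2.46, adjusted p = 0.00059). GDPD1, a glycerophosphodiester phosphodiesterase, had 748, 888 and 971 in lpcat, against 362, 316 and 374 in WT (1.302, adjusted p = 0.000457). The phospholipase C gene NPC4 was higher by 1.66, and NPC6 and GDPD2 by 0.59 and 0.50. NPC6 was not called without WT lysoPAF replicate 2 or lpcat lysoPAF replicate 1 or 3 (adjusted p of up to 0.0746), and GDPD2 not without lpcat lysoPAF replicate 2 or 3 (up to 0.0655). NPC6 was also lost with only the groups compared (adjusted p = 0.0661).

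Lpcat control replicate 2 again stood out in PS2 and GDPD1. It had 774 normalized counts of PS2 and 742 of GDPD1, against 130 and 308 in replicate 1 and 147 and 372 in replicate 3. In lpcat on lysoPAF against control medium, the log2 fold changes of PS2, GDPD1 and NPC4 were 1.78, 0.97 and 1.41 with it (adjusted p = 0.0244, 0.0212 and 0.0398), and 2.61, 1.35 and 2.104 without it. With it, PS2 and NPC4 were not called with edgeR or DESeq2, and none of the 3 with only the groups compared (adjusted p of up to 0.470, 0.470 and 0.474). The limma calls also ended with any of 5, 4 and 5 of the other 5 compared libraries left out (adjusted p of up to 0.184, 0.164 and 0.275). In WT 0 of 12 genes were called on lysoPAF against control medium by limma, edgeR or DESeq2, and 0 at an unadjusted p under 0.05 in limma. Of all genes, limma called 2.48% there, and 17% had an unadjusted p under 0.05. Without lpcat control replicate 2, NPC4 was called in WT there, at 0.69 (limma adjusted p = 0.0330), where 6.84% of all genes were called. On lysoPAF+ONO, where 2.13% of all genes were higher, 2 of the 12 were higher in lpcat than in WT, NPC6 by 0.75 and PS2 by 1.53. PS2 was not called there with any of the 6 compared libraries left out (adjusted p of up to 0.156) or with no filter (0.059). The median of the 12 was 0.50, against 0.01 over all genes, and 9 had an unadjusted p under 0.05 in limma, where 17.2% of all genes had. Without lpcat control replicate 2, NPC4 and GDPD1 were also called higher there, by 1.09 and 0.62, where 8.69% of all genes were called. Adding ONO to lysoPAF in WT raised PECP1 by 2.18 and GDPD2 by 0.46, calls that ended with some libraries left out (adjusted p of up to 0.126 and 0.132). That of PECP1 was also lost with edgeR, a pseudocount of 5 and only the groups compared (up to 0.108), and that of GDPD2 with scaling by nuclear genes and only the groups compared (up to 0.0936). On lysoPAF+ONO against control medium NPC4 was higher in lpcat by 1.53 (adjusted p = 0.0146) and in WT by 1.38 (adjusted p = 0.0214), and GDPD6 was called in lpcat (adjusted p = 0.0256), with 1.83 to 4.68 normalized counts on lysoPAF+ONO and 0 in every library on control medium. These calls also ended with some libraries left out (adjusted p of up to 0.0942, 0.0999 and 0.125). GDPD6 was not called with edgeR, DESeq2 or only the groups compared (up to 0.0798), nor NPC4 in lpcat with DESeq2 or only the groups compared (up to 0.313).

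NMT enzymes draw their methyl groups from *S*-adenosylmethionine, and 11 genes of its supply were tested. On lysoPAF 2 were higher and 0 lower in lpcat than in WT, where 6.56% of all genes were higher and 4.63% lower, with a median of 0.16, against 0.00 over all genes. SAHH2, which clears the product of methylation, had 4390, 4544 and 4093 normalized counts in lpcat, against 2642, 3134 and 3029 in WT (0.57, adjusted p = 0.003), and remained called with each library left out. MAT4, an *S*-adenosylmethionine synthetase, was higher by 0.34 (adjusted p = 0.0288), but not with any of 5 compared libraries left out (up to 0.106) or with scaling by nuclear genes (0.0503). In WT on lysoPAF against control medium, 2 of the 11 were called, where 2.48% of all genes were: MAT2, another synthetase, changed by -0.48 and the methionine synthase MS2 by -0.42. With ONO added in WT, MAT2 was the 1 gene of the 11 called, at 0.39, where 5.49% of all genes were. All 3 of these calls ended with some single libraries left out (adjusted p of up to 0.0921, 0.210 and 0.120), that of MS2 also with no filter or only the groups compared (up to 0.107), and that of MAT2 with ONO with scaling by nuclear genes (0.0736). On lysoPAF+ONO MAT2 was lower in lpcat than in WT, by -0.42, and in lpcat MAT4 was lower with ONO than without it, by -0.38, calls that ended likewise (adjusted p of up to 0.180 and 0.0993), that of MAT2 also with only the groups compared (0.0643). Of 4 tested CTP synthases, which supply the CCT step, CTPS1 and CTPS2 were lower in lpcat than in WT on lysoPAF, by -0.51 and -0.33, where 4.63% of all genes were lower. In lpcat both were higher with ONO than without it, by 0.62 and 0.34, where 6.06% of all genes were called. These calls also ended with single libraries left out (adjusted p of up to 0.0885, 0.222, 0.0771 and 0.240). Those of CTPS2 were also lost with only the groups compared (0.126 and 0.107), and its ONO call with scaling by nuclear genes, no filter and the replicate block.

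Of 6 genes that supply diacylglycerol, 1 was called higher in lpcat on lysoPAF, where 6.56% of all genes were, PAH1, a phosphatidate phosphatase (0.35, adjusted p = 0.0323; up to 0.141 with a compared library left out). None of 4 genes of the ethanolamine branch was called between genotypes by limma, edgeR or DESeq2 in any medium, with 1 at an unadjusted p under 0.05 on control medium and 0 on the other media. Limma called 2.77% of all genes on control medium, 11.2% on lysoPAF and 3.27% on lysoPAF+ONO, so a count of 0 among 4 genes is near these shares. CEK4, a kinase of ethanolamine and choline, was higher in WT on lysoPAF+ONO than on control medium by 0.35 (adjusted p = 0.0213; up to 0.0783 with a compared library left out and 0.0721 with scaling by nuclear genes), in a comparison where 9.75% of all genes were called. The lists were chosen with results of these data known, and their counts are a description beside the shares of all genes called.

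Among 15017 genes with a mean of at least 50 normalized counts, the 5 whose centred log2 group means were nearest to those of NMT1 over the 6 groups were PIP2E (AT2G39010), TED6 (AT1G43790), MIR863 (AT4G13494), AT5G15950 and ACA1 (AT3G52720). Their root mean square difference from NMT1 ran from 0.13 for PIP2E to 0.22 for ACA1, against 0.49 for a gene that does not vary and a median of 0.51 over the genes searched. PIP2E, an aquaporin gene, averaged 166 normalized counts in lpcat and 68.8 in WT on lysoPAF. On control medium it averaged 170 in lpcat and 122 in WT, and on lysoPAF+ONO 134 in lpcat and 97.5 in WT. These genes were picked for their likeness, so their values are a description.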

How the data were processed

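Groups came from the sample labels. Per the labels and the study's methods, the authors made paired-end libraries and named TAIR10, STAR (2.4.0j), StringTie (1.0.3), HTSeq (0.6.0) and, for normalized counts, DESeq2 (1.12.4); the strand setting of counting was not given in the sources used here. The deposited signal is thus a normalized count. Dividing each library by its step (0.609 to 1.24) gave whole reads for all 400470 values above 0, within 0.001 of a read. Size factors assume that most genes do not change, so values are relative.

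The 23760 rows whose reads summed to 5 or more entered limma 3.58.1 (R 4.3.3) fits on log2(normalized count + 1), with 1 coefficient per group, a variance trend and Benjamini-Hochberg adjustment; a call is an adjusted p under 0.05. Fold changes on this scale understate changes of low genes. Alternatives were edgeR 4.0.16 (TMM, RLE) and DESeq2 1.42.0 on these whole reads, a scaling by nuclear genes, pseudocounts of 0.5 and 5, other filters, a replicate block, only the groups compared and each library left out; leaving lpcat control replicate 2 out of fits that do not compare it was added after it was seen to stand apart. The limma and edgeR code was checked on simulated data, counts drawn from the means and sizes of these libraries with known fold changes. NMT2 and CEK1 were matched through identifiers in the study's lipid gene list, in which 764 of 800 identifiers equal those of the table. Counts were planned over 10 genes and are given over the 8 found by identifier. Named genes are all members, LPCAT1 and LPCAT2, up to 3 genes per list and comparison with the smallest adjusted p under 0.05, and the 5 nearest to NMT1. Members and lists were chosen with earlier results of these data known. NPC5, GDPD4 and CTPS5 were not tested. Coordinates and sequences are from TAIR10.1.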

Additional observations from a re-analysis of the deposited data

Results flagged for a closer look

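With all libraries, the response to a medium differed between the genotypes for 2 of the members and listed genes, passing the test of the difference itself. The log2 response of NMT1 to lysoPAF was 0.82 higher in lpcat than in WT, at -0.13 in lpcat and -0.95 in WT. Its response to ONO on lysoPAF differed by -0.59, at 0.08 in lpcat and 0.67 in WT. These 2 differences share the libraries on lysoPAF and are not independent. Both NMT1 calls ended with some single libraries left out (limma adjusted p of up to 0.104 and 0.0757). The call for lysoPAF also ended with only the groups compared (0.142). The response of GDPD2 to ONO differed by -0.78 (limma adjusted p = 0.0307), with 1023, 878 and 974 normalized counts in lpcat on lysoPAF+ONO and 1003, 1303 and 1296 in lpcat on lysoPAF. In WT, GDPD2 had 1223, 1285 and 997 on lysoPAF+ONO and 875, 816 and 835 on lysoPAF. The call for GDPD2 ended in 8 of 13 fits without 1 library, with adjusted p of up to 0.110, and with scaling by nuclear genes (adjusted p = 0.0623). Without lpcat control replicate 2, limma called further genes, where 9.49% of all genes were called for lysoPAF and 4.96% for ONO. For lysoPAF these were the CEK1 locus, PS2, GDPD1, SAHH2, CTPS1, NPC4, PECP1 and LPCAT2 (adjusted p 5.24e-10 to 0.0333). For ONO these were the CEK1 locus, CEK2, PS2, GDPD1, PECP1, MAT2, MAT4 and CTPS1 (adjusted p 0.0024 to 0.0266).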

How the results depend on the processing

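No member changed direction in a called comparison. The number of the 8 genes called moved as follows. In lpcat against WT on control medium it was 0, in place of 1, with only the groups compared, where 0.0126% of all genes were called. On lysoPAF it was 2, in place of 1, with edgeR (TMM and RLE), DESeq2 and filterByExpr, where 11.4% to 14.4% of all genes were called. In WT on lysoPAF against control medium it was 2, in place of 1, with DESeq2 (5.02% of all genes called). On lysoPAF+ONO against control medium in WT it was 1, in place of 2, with a pseudocount of 5 or no filter (9.67% and 8.21%). For the difference in response to lysoPAF it was 0, in place of 1, with only the groups compared (0% of all genes called). For ONO it was 2, in place of 1, with DESeq2 and with only the groups compared (3.28% and 4.22%). With 1 library left out, counts ran from 0 to 1 for lpcat against WT on control medium and for the difference in response to lysoPAF. The shares of all genes called ran from 1.17% to 7.06% and from 0% to 9.49%. Counts ran from 1 to 2 for lpcat against WT on lysoPAF (5.90% to 17.0%) and for lysoPAF in WT (0.699% to 6.84%). They ran from 0 to 2 for lysoPAF in lpcat (0% to 18.7%) and for the difference in response to ONO (0.202% to 4.96%). They also ran from 0 to 2 for lysoPAF+ONO against control medium in lpcat (3.32% to 15.6%) and in WT (5.80% to 15.5%). Without lpcat control replicate 2 the count was 2 for lysoPAF in lpcat, for lysoPAF+ONO against control medium in lpcat, for lpcat against WT on lysoPAF, for lysoPAF in WT and for the difference in response to ONO. In these fits 18.7%, 15.6%, 17.0%, 6.84% and 4.96% of all genes were called, in the same order.

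Over all genes, only the groups compared gave 3 calls in place of 658 for lpcat against WT on control medium, 0 in place of 835 for lysoPAF in lpcat, 70 in place of 1677 for lysoPAF+ONO against control medium in lpcat, 0 in place of 13 for the difference in response to lysoPAF and 1002 in place of 299 for ONO. DESeq2 gave 1006 in place of 658 for lpcat against WT on control medium, 891 in place of 590 for lysoPAF in WT, 180 in place of 13 for the difference in response to lysoPAF and 628 in place of 299 for ONO; edgeR gave 25 (TMM) and 23 (RLE) in place of the 13, and scaling by nuclear genes 189 in place of the 299. Leaving out lpcat control replicate 2 raised the 13 to 2256, the 299 to 1179, the 658 to 1678 and the 835 to 4434, and leaving out lpcat control replicate 1 or 3 turned the 835 to 0. With 1 library left out, calls for lpcat against WT ran from 277 (without WT control replicate 2) to 1678 on control medium, from 1403 (without lpcat lysoPAF replicate 2) to 4039 in place of 2658 on lysoPAF, and from 206 (without lpcat lysoPAF+ONO replicate 2) to 2064 in place of 777 on lysoPAF+ONO, each highest without lpcat control replicate 2. The causes of these shifts were not tested. Whether replicate numbers pair the libraries is not settled by these values. Correlations of same-numbered deviations ran from -0.15 to 0.21, and 10 of 45 were over 0.1. Those of replicate 3 were mostly above 0, up to 0.20, and pairs of unlike number were not computed as a baseline. The replicate block changed no count of members, but gave more calls over all genes in every comparison. It gave 747 in place of 658 for lpcat against WT on control medium and 1077 in place of 835 for lysoPAF in lpcat. For the difference in response to lysoPAF it gave 29 in place of 13. Genes with few reads, such as PECP1 in WT, have wide errors at this depth.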
